A study of Homo sapiens with 9 samples.

Results

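The Aurora kinases AURKA and AURKB, the Polo-like kinases PLK1, PLK2, PLK3 and PLK4, the Aurora A activator TPX2, and INCENP, BIRC5 and CDCA8, which form the chromosomal passenger complex with AURKB, were examined in FIBP-depleted lung cancer cells. These 10 genes were picked by name out of 60966 genes in the deposited tables, and the values of all transcripts of a gene were added up. H1299 is a human line from a non-small cell lung cancer. The cells received either Scramble, a scrambled siRNA, or one of Si-FIBP#1 and Si-FIBP#2, which both target the mRNA of FIBP, and RNA was collected after 48 h. There were 3 samples in each group, 9 in all, and no group was without siRNA. The study used these profiles to look for genes downstream of FIBP. The series text calls the samples independent without saying whether they were separate cultures. The p-values below therefore only set a difference against the spread between these samples, estimated over the 3 groups together.

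The 3 kinase groups act at different steps of cell division. Aurora A, bound to TPX2, builds the spindle poles, and Aurora B works with INCENP, survivin (BIRC5) and borealin (CDCA8) at centromeres, where it corrects wrong attachments of chromosomes to the spindle, and later at the site of cytokinesis. PLK1 drives entry into mitosis and acts at kinetochores and the cleavage site, PLK4 starts centriole duplication, and PLK2 and PLK3 belong to the same family but are best known as genes that serum and cellular stress induce. In dividing cells the mRNAs of AURKA, AURKB, TPX2, BIRC5, CDCA8 and PLK1 peak in G2 and mitosis.

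Poly(A) RNA was sequenced, and the values are FPKM, which correct the fragments of a transcript for its length and for sequencing depth. The tables hold no counts. From the step between low values, the depth was estimated as 20150000 to 24050000 fragments per sample, and the correlation across genes within a group was 0.983 to 0.988 (genes are not replicates). FIBP, the targeted gene, fell from 81.9 ± 5.71 FPKM (SD, n = 3) to 6.52 ± 1.93 FPKM under Si-FIBP#1 and 7.09 ± 1.15 FPKM under Si-FIBP#2 (limma, adjusted p = 9.4e-07 and 1.4e-06). Of the markers listed for this line, KRT8 (107 FPKM in Scramble), KRT18 (476 FPKM) and VIM (3232 FPKM) were abundant. By contrast, CDH1 was listed at 0 in all 9 samples, NKX2-1 at 0 in Scramble and EPCAM at 0.11 FPKM on average in Scramble. CDKN2A mRNA was at 183 ± 16 FPKM in Scramble, although it had been listed as low in H1299. The summed level of 9 markers of blood, endothelial, fibroblast and liver cells was 0.51 to 0.63 FPKM in Scramble, 1.45 to 1.98 FPKM with Si-FIBP#1 and 1.5 to 3.03 FPKM with Si-FIBP#2, and their part in the results was not tested.

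In Scramble cells 8 of the 10 genes were well expressed and PLK2 and PLK3 were low. TPX2 was highest at 179 FPKM, followed by PLK1 at 98.0 and AURKA at 97.0 FPKM, whose samples overlapped. AURKB was next with 89.3, BIRC5 with 58.6, CDCA8 with 51.7, INCENP with 27.7, PLK4 with 21.0, PLK3 with 7.86 and PLK2 with 4.96 FPKM. With all transcripts added up, each of these neighbours, apart from PLK1 and AURKA, was separated from the next by all 3 of its samples. FPKM are scaled by transcript length, so these levels can be set side by side. Transcripts assembled by the authors, beyond the annotated ones, made up 38.9% of AURKA and 33.3% of INCENP in Scramble. They made up 2.87% of PLK4 and none of AURKB and BIRC5, so the places of AURKA and INCENP in this order depend on counting them.

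Of the 10 genes, 8 fell with both siRNAs at an adjusted p below 0.05: AURKA, AURKB, TPX2, INCENP, BIRC5, CDCA8, PLK1 and PLK4. Over all genes tested, 19.9% were lower by adjusted p with Si-FIBP#1 and 17.7% with the other siRNA. With Si-FIBP#1 the 8 genes were left with 33.1% to 38.1% of the Scramble level, and with Si-FIBP#2 with 42.6% to 64.7%. PLK2 averaged 122% and 120% of the Scramble level and PLK3 75.2% and 85.7%, and of these only PLK3 with Si-FIBP#1 passed by adjusted p. A fall in the mean level can come from fewer cells in G2 and mitosis or from less mRNA in each cell, and these cannot be told apart in bulk RNA.

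**Figure D1:**
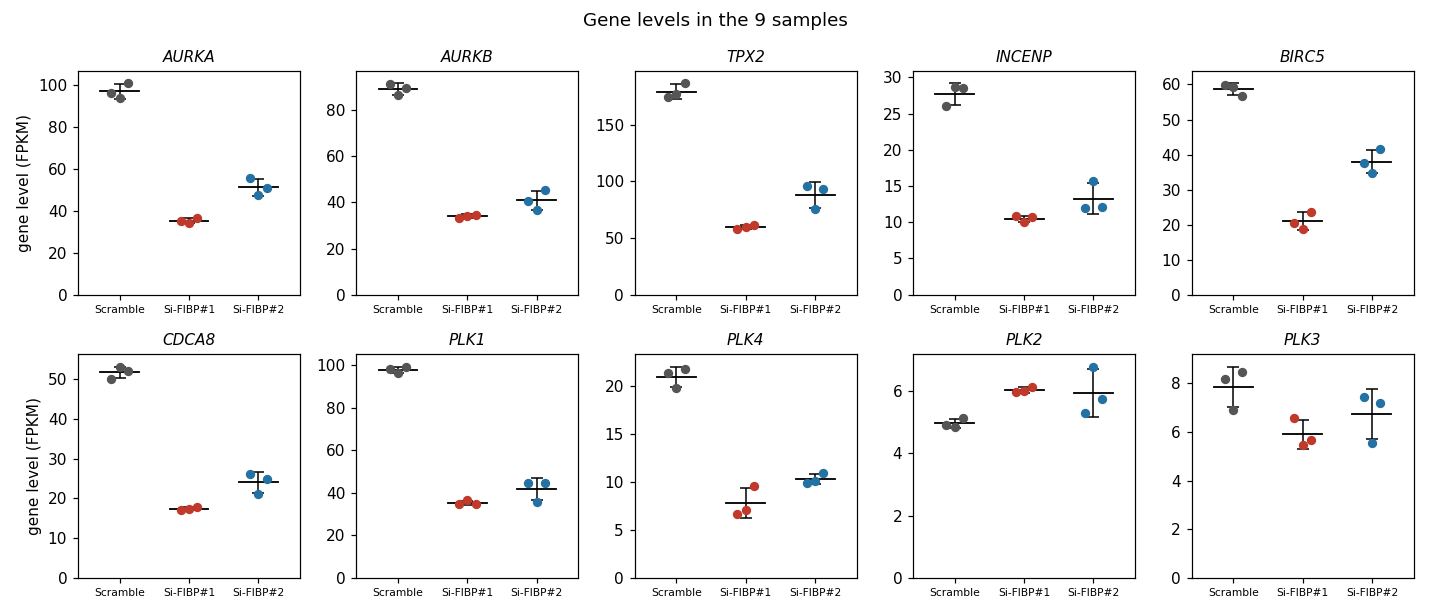
Level of each gene in FPKM (vertical axis, from 0) in the 9 samples, with 3 points per group and bars for the mean ± SD. In 8 panels all Scramble samples lie above all samples with either siRNA, while PLK2 and PLK3 lie closer together.

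AURKA (ENSG00000087586, chromosome 20, 56369389 to 56392337, minus strand) encodes Aurora A. Its level was 96.46, 93.63 and 100.82 FPKM in the Scramble samples, against 34.90, 34.12 and 36.58 under Si-FIBP#1 and 55.44, 47.31 and 50.79 under Si-FIBP#2. The 3 groups did not overlap, and Si-FIBP#1 samples were lowest. On the log2(FPKM + 1) scale, which is used for every difference here and understates the change of low genes, AURKA differed from Scramble by -1.44 with Si-FIBP#1 (limma, standard error 0.064, adjusted p = 5.1e-07) and by -0.91 with Si-FIBP#2 (limma, adjusted p = 5.7e-06). The second fall was under 2-fold. With samples scaled by their median ratio it was -1.01 (limma, adjusted p = 4.6e-06), and AURKA was called with Si-FIBP#2 too.

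TPX2 (ENSG00000088325, chromosome 20, 31739271 to 31801805, plus strand) encodes the spindle protein that binds and activates Aurora A. It was at 174.43, 177.28 and 186.70 FPKM in Scramble, but at 57.54, 59.54 and 61.32 under Si-FIBP#1 and 96.16, 75.37 and 92.96 under Si-FIBP#2. Again no groups overlapped, and replicate 2 of Si-FIBP#2 lay apart from its group towards Si-FIBP#1. TPX2 fell by 1.58 with Si-FIBP#1 (limma, standard error 0.084, adjusted p = 1.0e-06) and by 1.02 with Si-FIBP#2 (limma, adjusted p = 1.3e-05). With all transcripts added up, the ratio of TPX2 to AURKA mRNA averaged 1.85, 1.69 and 1.72 in Scramble, Si-FIBP#1 and Si-FIBP#2 cells. It depends on counting the assembled transcripts of AURKA, whose share differed between Scramble and the siRNA groups.

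AURKB (ENSG00000178999, chromosome 17, 8204733 to 8210600, minus strand) encodes the catalytic subunit of the chromosomal passenger complex. The Scramble samples had 91.48, 86.72 and 89.73 FPKM, those with Si-FIBP#1 33.10, 34.25 and 34.74, and those with Si-FIBP#2 40.58, 36.90 and 45.30. The siRNA groups were close to each other and far below Scramble. AURKB differed from Scramble by -1.37 with Si-FIBP#1 (limma, standard error 0.071, adjusted p = 9.4e-07) and by -1.11 with Si-FIBP#2 (limma, adjusted p = 3.4e-06).

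INCENP (ENSG00000149503, chromosome 11, 62123973 to 62153163, plus strand) encodes the scaffold on which the complex assembles and which activates Aurora B. It was measured at 25.98, 28.60 and 28.46 FPKM in Scramble, against 10.81, 10.02 and 10.66 under Si-FIBP#1 and 11.90, 15.67 and 12.11 under Si-FIBP#2. Both siRNA groups were below every Scramble sample, and replicate 2 of Si-FIBP#2 was the highest of the 6. INCENP fell by 1.32 with Si-FIBP#1 (limma, standard error 0.10, adjusted p = 7.3e-06) and by 1.02 with Si-FIBP#2 (limma, adjusted p = 3.8e-05).

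CDCA8 (ENSG00000134690, chromosome 1, 37692418 to 37709719, plus strand) encodes borealin, which with survivin brings the complex to centromeres. Its values were 50.17, 53.04 and 52.01 FPKM in Scramble, falling to 17.09, 17.33 and 17.96 under Si-FIBP#1 and 26.03, 21.08 and 24.98 under Si-FIBP#2. Groups did not overlap. CDCA8 dropped by 1.51 with Si-FIBP#1 (limma, standard error 0.077, adjusted p = 8.4e-07) and by 1.08 with Si-FIBP#2 (limma, adjusted p = 5.7e-06).

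BIRC5 (ENSG00000089685, chromosome 17, 78214186 to 78225636, plus strand) encodes survivin, a member of the inhibitor of apoptosis family that works mainly in mitosis. In Scramble it was at 59.80, 59.39 and 56.75 FPKM, with Si-FIBP#1 at 20.46, 18.73 and 23.70 and with Si-FIBP#2 at 37.57, 34.81 and 41.48. The Si-FIBP#2 samples lay about midway between the other groups, with no overlap. BIRC5 differed from Scramble by -1.45 with Si-FIBP#1 (limma, standard error 0.090, adjusted p = 2.4e-06) and by only -0.62 with Si-FIBP#2 (limma, adjusted p = 4.0e-04), the smallest fall of the 8 genes with that siRNA.

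Set against AURKB, BIRC5 moved most among the passenger subunits, under Si-FIBP#2. The ratio of BIRC5 to AURKB was 0.657 ± 0.026 (SD, n = 3) for Scramble, 0.616 ± 0.068 for Si-FIBP#1 and 0.928 ± 0.014 for Si-FIBP#2, where all 3 samples were above the 6 others. By contrast, INCENP over AURKB averaged 0.310, 0.309 and 0.328 in the 3 groups, and CDCA8 over AURKB averaged 0.580, 0.513 and 0.588, with the Si-FIBP#1 samples below all others. With all transcripts added up, PLK1 over AURKA averaged 1.01, 1.00 and 0.81, with the Si-FIBP#2 samples below all others. Assembled transcripts made up 38.9%, 25.6% and 27.5% of AURKA in Scramble, Si-FIBP#1 and Si-FIBP#2. How the groups compare in PLK1 over AURKA therefore depends on counting them. No test was made of these ratios.

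**Figure D2:**
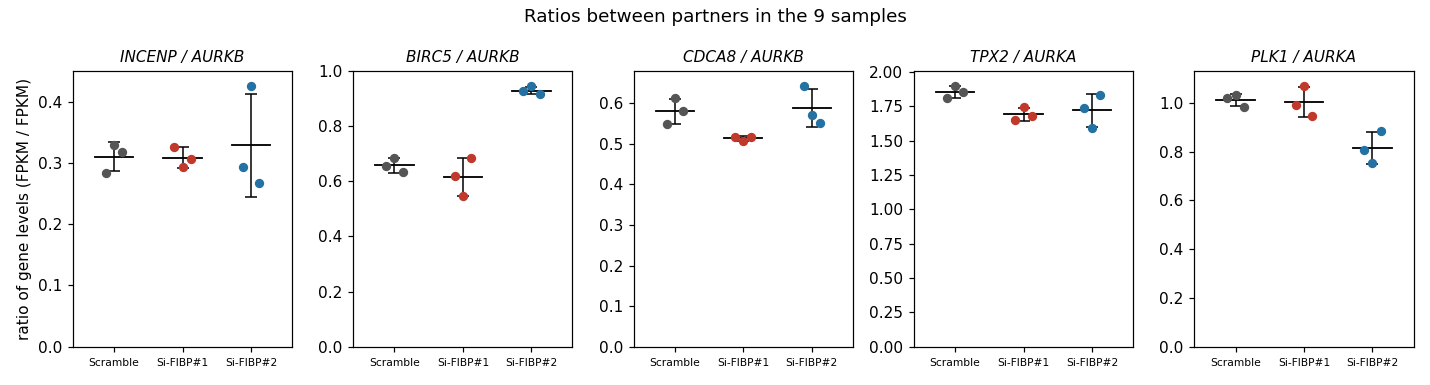
Ratios of gene levels (FPKM over FPKM, vertical axis) in each of the 9 samples for the subunits of the passenger complex over AURKB and for TPX2 and PLK1 over AURKA, with bars for the mean ± SD. The ratio of BIRC5 to AURKB is highest in the 3 Si-FIBP#2 samples (mean 0.928). Levels include assembled transcripts, whose share of AURKA differed between Scramble and the siRNA groups.

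PLK1 (ENSG00000166851, chromosome 16, 23677656 to 23690367, plus strand) encodes the main mitotic Polo kinase. It was at 98.51, 96.48 and 99.14 FPKM in Scramble, but at 34.64, 36.42 and 34.65 under Si-FIBP#1 and 44.71, 35.63 and 44.84 under Si-FIBP#2. All 6 siRNA samples were far below Scramble, and replicate 2 of Si-FIBP#2 lay within the Si-FIBP#1 range. PLK1 fell by 1.45 with Si-FIBP#1 (limma, standard error 0.082, adjusted p = 1.4e-06) and by 1.22 with Si-FIBP#2 (limma, adjusted p = 4.3e-06), the largest fall of the 10 genes with that siRNA.

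PLK4 (ENSG00000142731, chromosome 4, 127880861 to 127899195, plus strand) encodes the kinase of centriole duplication. The 3 Scramble samples were at 21.32, 19.81 and 21.80 FPKM, the Si-FIBP#1 samples at 6.63, 7.11 and 9.57 and the Si-FIBP#2 samples at 9.88, 10.14 and 10.94. The groups did not overlap, although replicate 3 of Si-FIBP#1 came close to the Si-FIBP#2 samples. PLK4 differed from Scramble by -1.34 with Si-FIBP#1 (limma, standard error 0.11, adjusted p = 1.6e-05) and by -0.96 with Si-FIBP#2 (limma, adjusted p = 1.3e-04), the latter under 2-fold on this scale, although in FPKM it kept 49.2% of the Scramble level. With a pseudocount of 0.1 or median-ratio scaling PLK4 was called with Si-FIBP#2 too.

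PLK2 (ENSG00000145632, chromosome 5, 58453982 to 58460260, minus strand) was not lower with either siRNA. It was at 4.91, 4.83 and 5.13 FPKM in Scramble, against 5.96, 6.0 and 6.14 under Si-FIBP#1 and 5.30, 6.78 and 5.74 under Si-FIBP#2. Every siRNA sample was above every Scramble sample, by a small margin. The difference was 0.24 with Si-FIBP#1 (limma, 95% interval 0.035 to 0.44, adjusted p = 0.0538) and 0.22 with Si-FIBP#2 (limma, 95% interval 0.011 to 0.42, adjusted p = 0.0770), so neither passed the test. The first passed by adjusted p in 5 of 19 alternatives, down to 0.0222 in limma without replicate 2 of Si-FIBP#2, and the second in 1 of 19 (limma, adjusted p = 0.0387 without replicate 1 of Si-FIBP#2). With samples scaled by their median ratio, the Si-FIBP#2 and Scramble samples of PLK2 overlapped.

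PLK3 (ENSG00000173846, chromosome 1, 44800225 to 44805990, plus strand) was at 8.20, 6.92 and 8.47 FPKM in Scramble, against 6.59, 5.46 and 5.68 under Si-FIBP#1 and 7.44, 5.57 and 7.21 under Si-FIBP#2. The Si-FIBP#1 samples were just below Scramble, and the Si-FIBP#2 samples overlapped both groups. The difference was -0.36 with Si-FIBP#1 (limma, 95% interval -0.63 to -0.089, adjusted p = 0.0335) and -0.20 with Si-FIBP#2 (limma, 95% interval -0.47 to 0.070, adjusted p = 0.197). The first value did not hold without assembled transcripts (limma, -0.24, adjusted p = 0.256) nor with no filter (limma, adjusted p = 0.0821), nor without replicate 1 or 3 of Scramble or replicate 2 or 3 of Si-FIBP#1 (limma, adjusted p = 0.0882 to 0.106). An estimated 170 to 260 fragments per sample lay behind PLK3 and 200 to 340 behind PLK2, against 380 to 13050 for the other genes.

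All 10 genes passed the filter of 1 FPKM in 3 samples and were tested with all others, 14985 genes in one fit. Called lower, at an adjusted p below 0.05 and over 2-fold, were 8 of the 10 with Si-FIBP#1, against 3.11% of all genes tested, and 5 of the 10 with Si-FIBP#2 (AURKB, TPX2, INCENP, CDCA8 and PLK1), against 2.13%. By adjusted p alone 9 were lower with Si-FIBP#1 (19.9% of all genes) and 8 with Si-FIBP#2 (17.7%). All 3 siRNA samples lay below all 3 Scramble samples for 9 genes with Si-FIBP#1 (24.3% of all genes) and for 8 with Si-FIBP#2 (21.2%), and above them for PLK2 alone with either siRNA (34.5% and 36.1% of all genes). For 8 of the 10 genes both siRNA groups were below Scramble, which held for 16.5% of all genes. Both comparisons share the Scramble samples, and the 10 genes were chosen with earlier results of these data known. With Si-FIBP#2, AURKB and PLK1 were called under every alternative, whereas TPX2, INCENP and CDCA8 lost the 2-fold call under some: 3 genes (AURKB, INCENP and PLK1) were called without replicate 2 of Si-FIBP#2, and 7 with samples scaled by their median ratio, while the 8 calls with Si-FIBP#1 stayed the same genes under every alternative that kept the 2-fold threshold.

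**Figure D3:**
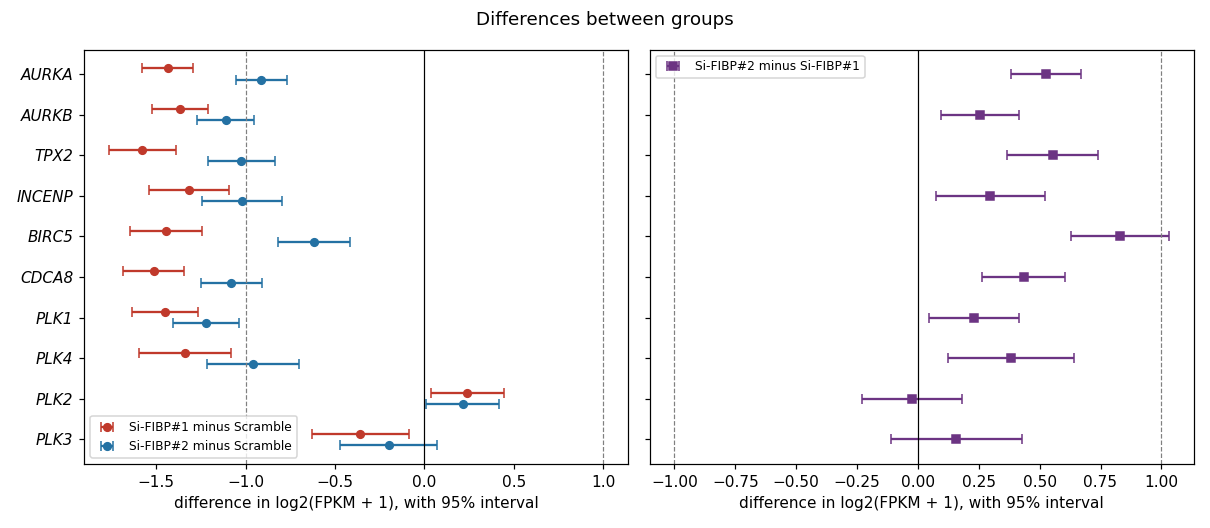
Differences in log2(FPKM + 1) with 95% intervals (horizontal axis) for the 10 genes, on the left each siRNA minus Scramble and on the right Si-FIBP#2 minus Si-FIBP#1; dashed lines mark 2-fold. With Si-FIBP#2 the estimates for AURKA, BIRC5 and PLK4 do not reach the 2-fold line on this scale. The intervals of AURKA and PLK4 cross that line, as do those of AURKB, TPX2, INCENP and CDCA8, which were called. BIRC5 differs most between the siRNAs (0.83).

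The siRNAs were also compared with each other. Of the 10 genes, 5 were higher with Si-FIBP#2 than with Si-FIBP#1 by adjusted p, against 9.58% of all genes tested, and none of them by 2-fold. BIRC5 differed most, by 0.83 (limma, standard error 0.090, adjusted p = 6.7e-04), followed by TPX2 with 0.55 (limma, adjusted p = 0.0030), AURKA with 0.53 (limma, adjusted p = 0.0011) and CDCA8 with 0.43 (limma, adjusted p = 0.0062). AURKB passed by little, with 0.25 (limma, adjusted p = 0.0395), and missed the threshold in 12 of the 19 alternatives, with an adjusted p of up to 0.117. PLK4 (0.38, adjusted p = 0.0522), INCENP (0.30, adjusted p = 0.0737) and PLK1 (0.23, adjusted p = 0.0922) missed the threshold in the limma fit. Of the 19 alternatives, PLK4 passed in 4 (limma, adjusted p = 0.0069 without replicate 3 of Si-FIBP#1), PLK1 in 2 (limma, adjusted p = 0.0015 without replicate 2 of Si-FIBP#2) and INCENP in 1. Samples with Si-FIBP#2 were all above those with Si-FIBP#1 for 7 genes (all but PLK1, PLK2 and PLK3), against 20.4% of all genes. FIBP itself averaged 6.52 and 7.09 FPKM with the siRNAs.

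The lower levels were found across transcripts of the 8 genes. These genes were taken because their summed levels fell, so lower values of their larger transcripts largely follow from that choice. The filter on the mean also counts the Scramble samples, where most of these transcripts were highest. The counts are a description, and no share over all transcripts was computed. Of 38 transcripts of the 8 genes with a mean of at least 1 FPKM over the 9 samples, 38 had a lower mean under Si-FIBP#1 than in Scramble and 37 under Si-FIBP#2. Of all 74 with any value, 64 and 62 were lower and 8 and 10 higher, the 8 at means of at most 0.55 FPKM. The exception among the 38 was the AURKA transcript ENST00000371356, with a mean of 2.6 FPKM for Scramble, 2.19 for Si-FIBP#1 and 3.24 for Si-FIBP#2. In PLK1 the main transcript ENST00000300093 went from 84.1 FPKM to 28.4 and 34.5 FPKM. In BIRC5 the main transcript ENST00000350051 went from 41.7 to 14.5 and 27.1 FPKM, and 2 other coding forms, ENST00000301633 (5.94, 2.47 and 4.16 FPKM) and ENST00000374948 (5.00, 2.13 and 3.61 FPKM), followed it. How fragments are shared out among transcripts of a gene is an estimate, and these values were not tested.

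In AURKA, assembled transcripts took a smaller share in FIBP-depleted cells. Transcripts assembled by the authors, 4 of its 17, made up 38.9% ± 2.0 (SD, n = 3) of AURKA in Scramble, against 25.6% ± 3.5 under Si-FIBP#1 and 27.5% ± 3.9 under Si-FIBP#2. With annotated transcripts only, AURKA was lower by 1.15 and 0.66 in place of 1.44 and 0.91, on the log2 scale. In PLK1, an assembled transcript of 14768 nt, longer than the 12712 bp of the gene itself, went from 2.43% of the gene's level to 4.82% and 4.6% while its level went from 2.38 to 1.70 and 1.92 FPKM.

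In PLK2 and PLK3 the main coding transcript was not lower with either siRNA. In PLK3, ENST00000372201 was at 2.81 ± 0.56 FPKM (SD, n = 3) for Scramble, 3.01 ± 0.33 for Si-FIBP#1 and 3.03 ± 0.32 for Si-FIBP#2, so the groups overlapped. The other 8 transcripts of PLK3 together went from 5.06 ± 0.53 to 2.90 ± 0.31 and 3.71 ± 0.70 FPKM. In PLK2, ENST00000274289 was at 4.22, 3.76 and 3.79 FPKM in Scramble, against 5.14, 5.84 and 5.27 under Si-FIBP#1 and 4.16, 4.74 and 4.23 under Si-FIBP#2. Its Si-FIBP#1 samples were above all others, and its Si-FIBP#2 samples overlapped Scramble.

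**Figure D4:**
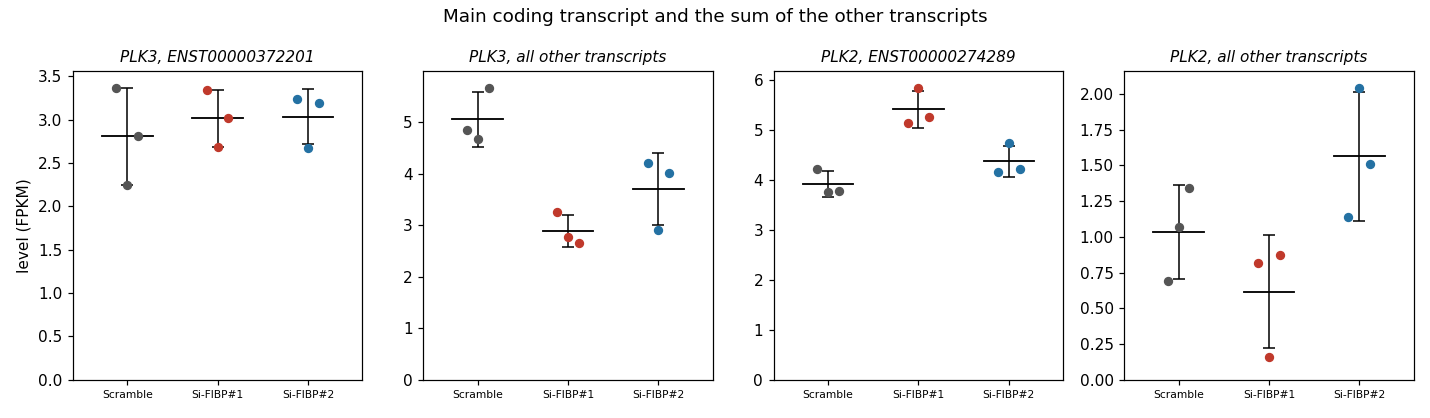
Level (FPKM, vertical axes from 0) of the main coding transcript and of the summed other transcripts of PLK3 and PLK2 in the 9 samples, with bars for the mean ± SD. The lower PLK3 values with siRNA lie in the other transcripts (mean 5.06, 2.90 and 3.71 FPKM), while the main coding transcript overlaps between groups.

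Promoters of 5 genes that fell are shown beside those of PLK2 and PLK3, because many G2/M genes carry a CHR element (TTTGAA) near the start site, through which the DREAM and MuvB complexes act, and CCAAT boxes bound by NF-Y further upstream. RefSeq windows (GRCh38.p14) from 250 bases before to 50 after the start were matched by symbol for 7 of the 10 genes, not for AURKA, BIRC5 and TPX2. The 120 bases before the RefSeq start, which can differ from the gene ends given above, read 5′ to 3′ on the gene's strand as follows (for AURKB and PLK4 the first of several windows by position), with matches to TTTGAA and CCAAT on either strand in capitals. They lie at chr16:23678769-23678888 (plus strand), chr1:37692396-37692515 (plus), chr11:62123891-62124010 (plus), chr17:8210226-8210345 (minus), chr4:127880773-127880892 (plus), chr5:58460087-58460206 (minus) and chr1:44800257-44800376 (plus).
PLK1: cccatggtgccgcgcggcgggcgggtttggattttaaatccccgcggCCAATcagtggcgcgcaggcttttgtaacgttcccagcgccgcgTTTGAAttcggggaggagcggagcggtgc
CDCA8: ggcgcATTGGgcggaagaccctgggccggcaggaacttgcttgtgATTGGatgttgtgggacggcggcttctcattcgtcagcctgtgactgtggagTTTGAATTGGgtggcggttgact
INCENP: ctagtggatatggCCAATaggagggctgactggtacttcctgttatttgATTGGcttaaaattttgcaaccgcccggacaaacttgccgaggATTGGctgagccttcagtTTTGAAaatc
AURKB: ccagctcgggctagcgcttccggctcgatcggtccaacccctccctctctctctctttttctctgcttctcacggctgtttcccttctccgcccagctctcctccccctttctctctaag
PLK4: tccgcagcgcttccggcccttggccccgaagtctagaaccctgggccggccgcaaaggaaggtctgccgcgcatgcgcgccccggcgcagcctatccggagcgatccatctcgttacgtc
PLK2: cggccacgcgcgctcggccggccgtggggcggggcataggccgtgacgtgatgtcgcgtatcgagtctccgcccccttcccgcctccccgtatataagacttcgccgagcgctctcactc
PLK3: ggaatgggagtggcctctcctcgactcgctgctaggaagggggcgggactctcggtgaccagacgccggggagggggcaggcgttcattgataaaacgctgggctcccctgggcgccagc

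TTTGAA begins 10 bases before the start in INCENP, 23 in CDCA8 and 29 in PLK1, and in CDCA8 it shares 1 base with a CCAAT match on the other strand. PLK4, which has 3 windows, has a TTTGAA match on the minus strand 39 bases after one start, and none before a start. AURKB fell as well but had no TTTGAA in its 2 windows, which overlap and share 1 CCAAT match, 153 or 129 bases before the start. Counted by window, 4 of 10 (in CDCA8, INCENP, PLK1 and PLK4) held TTTGAA, against 15.2% of all 35116 windows, and 6 of 10 (in AURKB, CDCA8, INCENP, PLK1 and PLK4) held CCAAT, against 34.6%. Neither motif was in the windows of PLK2 and PLK3. The E2F motifs TTTGGCG and TTTCGCG (3.2% of windows) and the STAT motif TTCNNNGAA (7.7%) were in none of the 10 windows. A match of letters is no evidence of binding, and a missing one says only that these letters are not in the window.

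Of 40 activators, targets and opponents of these kinases, 37 were tested (all but AURKC, PLK5 and NEDD9), and 21 were called lower and 2 higher with Si-FIBP#1, 11 lower and 1 higher with Si-FIBP#2, which left 14 and 25 uncalled. Over all genes tested, 3.11% were called lower and 2.55% higher under Si-FIBP#1, and 2.13% and 2.92% under Si-FIBP#2. Their median difference was -1.08 and -0.82, beside 0.073 and 0.11 over all genes tested. This list and those below were chosen with earlier results of these data known, so the counts are a description only. KIF20A, the kinesin that carries PLK1 and Aurora B to the central spindle, fell most, by 1.92 with Si-FIBP#1 (limma, adjusted p = 3.8e-07) and by 1.70 with Si-FIBP#2 (limma, adjusted p = 6.7e-07). CDC20, the activator of the anaphase-promoting complex, fell by 1.88 and 1.52, and PKMYT1, the kinase that holds CDK1 inactive and is a PLK1 substrate, by 1.86 and 1.29. The genes called higher were named after their values were seen. USP44, a deubiquitinase of the spindle checkpoint, rose by 1.15 and 1.22 with the siRNAs (limma, adjusted p = 4.1e-04 and 2.9e-04), from 2.18 to 6.06 and 6.42 FPKM, and KIZ, a centrosomal PLK1 substrate, by 1.16 and, under 2-fold, 0.68 (limma, adjusted p = 0.0012 and 0.0187). The KIZ value with Si-FIBP#1 rests in part on replicate 1, at 11.15 FPKM against 5.38 and 6.11, and without it the difference was 0.87 (limma, adjusted p = 2.3e-04) and the 2-fold call was lost, which leaves 1 gene called higher.

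Other genes of G2 and mitosis fell throughout. Of 25 listed, 24 were called lower under Si-FIBP#1 and 15 under Si-FIBP#2, beside 3.11% and 2.13% of all genes, and 25 were lower by adjusted p alone with each siRNA, beside 19.9% and 17.7%. The median difference was -1.56 and -1.12. This list, too, was chosen with earlier results of these data known. TTK, a checkpoint kinase, fell by 1.89 and 1.31, ANLN, a scaffold of the cleavage furrow, by 1.78 and 1.12, and CDK1 by 1.75 and 1.35. With Si-FIBP#2 against Si-FIBP#1, 21 of these 25 and 20 of the 37 kinase partners were higher by adjusted p, beside 9.58% of all genes.

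Among 20 transcription regulators of such genes, 6 were called lower under Si-FIBP#1 and 5 under Si-FIBP#2, beside 3.11% and 2.13% of all genes, and the medians were -0.60 and -0.54, beside 0.073 and 0.11. MYBL2, which binds CHR promoters with MuvB, fell by 1.90 and 1.52 (limma, adjusted p = 2.4e-07 and 6.7e-07), FOXM1, its partner in G2, by 1.80 and 1.46 (limma, adjusted p = 6.6e-07 and 2.1e-06), and E2F2 by 1.64 and 1.56. The list also held STAT3, the factor of interest in the study. For the protein, the paper reports total STAT3 and its phosphorylation at a tyrosine unaltered by FIBP silencing. It reports less phosphorylation at a serine, lower activity in a reporter assay and less STAT3 at the promoter of EME1. In FIBP-depleted cells, extra STAT3 partly reversed the fall of EME1. The level of STAT3 mRNA measures none of these. STAT3 mRNA rose by 0.78 and 0.69, under 2-fold (limma, adjusted p = 6.5e-06 and 1.6e-05), and LIN37, a MuvB subunit, by 0.58 with each siRNA (limma, adjusted p = 2.2e-04 for each), both named after their values were seen.

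Early response genes, which like PLK2 and PLK3 react to serum and stress, were set beside the pair. Of 19 tested, 5 were called lower with Si-FIBP#1 (FOS, EGR1, GADD45B, CCN1 and CCN2) and 2 with Si-FIBP#2 (CCN1 and CCN2), beside 3.11% and 2.13% of all genes, and none higher, with medians of -0.39 and -0.19. CCN2, a matrix protein induced by YAP and TGF-beta, fell by 1.47 and 2.20 (limma, adjusted p = 4.8e-06 and 8.2e-07). EGR1 fell by 1.70 and 0.83 and FOS by 1.25 and 0.56, the second value of each under 2-fold, though EGR1 fell by 1.13 under Si-FIBP#2 without replicate 2 of that group. DUSP1, a phosphatase of MAP kinases, rose by 0.61 and 0.76, under 2-fold (limma, adjusted p = 1.7e-04 and 4.5e-05), and was named after its values were seen.

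**Figure D5:**
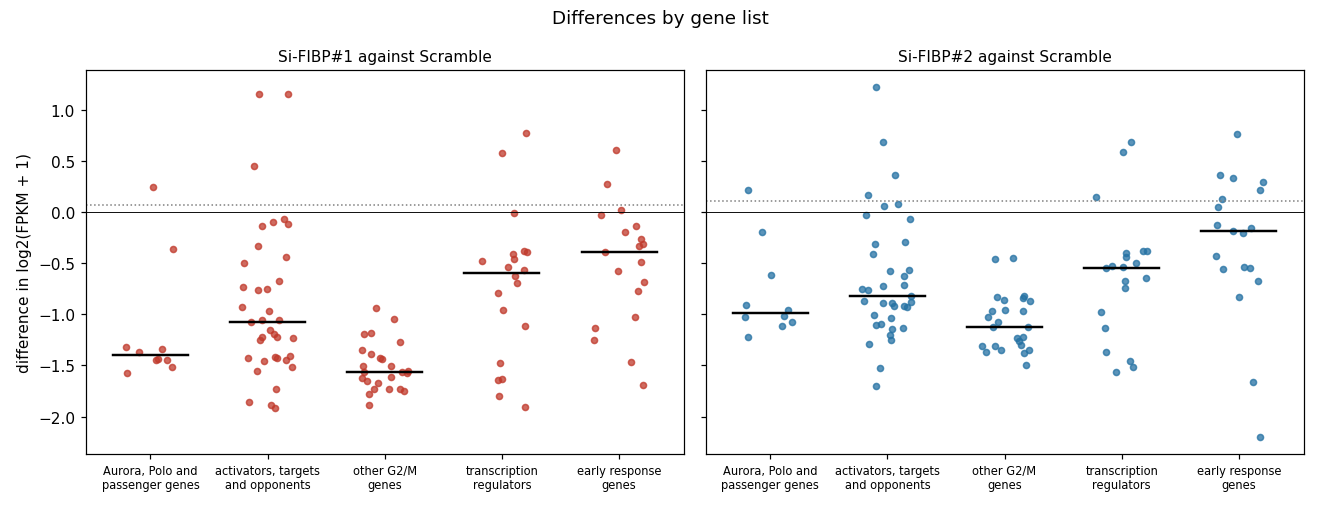
Differences in log2(FPKM + 1) against Scramble (vertical axes) of each tested gene in 5 lists, on the left with Si-FIBP#1 and on the right with Si-FIBP#2; solid bars are list medians and the dotted line is the median of all genes tested. Other G2/M genes lie lowest (medians -1.56 and -1.12), and the early response medians lie nearer 0 (-0.39 and -0.19).

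The genes whose pattern over the 9 samples was most like that of PLK1, by Euclidean distance between centred log2(FPKM + 1) values among 10003 genes with a mean of 5 FPKM or more, were KIF18B (distance 0.17), KNSTRN (0.22) and HMGN2 (0.24). For AURKA they were NUSAP1 (0.16), DLGAP5 (0.19) and NDC80 (0.20). PLK2 was nearest to PARVA (0.11), HAX1 (0.11) and ECD (0.12), and PLK3 to SHOX2 (0.17), PUSL1 (0.18) and ZBTB46-AS1 (0.19). The distance of a gene that moves little is small by itself, so those of PLK2 and PLK3 should not be set against those of PLK1 and AURKA.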

How the data were processed

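RNA-seq of H1299 cells, 3 samples each with Scramble, Si-FIBP#1 and Si-FIBP#2, was analysed from 1 transcript table per sample. The authors deposited FPKM values rounded to 2 decimals for annotated transcripts and for 14956 assembled transcripts of 244443 in all. The unit was inferred from the values. The submitters' processing notes name HISAT2 and StringTie; versions, genome build and annotation release are not given in the sources used here. Groups came from the sample titles.

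Transcript FPKM were summed per gene. Genes at 1 FPKM or more in 3 or more of the 9 samples were tested on log2(FPKM + 1) with limma 3.58.1 (empirical Bayes with trend) in R 4.3.3, in 1 fit of 3 groups, with Benjamini-Hochberg adjustment over all genes tested. Genes were called at an adjusted p below 0.05 and over 2-fold. Steps were tested on simulated data. Figures were drawn with Python 3.11.15, pandas 2.3.3 and matplotlib 3.10.9.

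Depth (20150000 to 24050000 fragments, median 21550000) was estimated from the value steps of 8100 single-transcript genes. FPKM carry no counting interval, so precision rests on the spread between samples. Values are divided by transcript length less 260 to 300 bases, which inflates very short transcripts. Gene coordinates are from GENCODE 29 (GRCh38) and promoter windows from RefSeq (GRCh38.p14).

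Named were the 10 genes, FIBP and the 3 genes of each list with the largest absolute change with Si-FIBP#1. Named too were the 3 genes nearest to PLK1, AURKA, PLK2 and PLK3 over the 9 samples, with the 10 genes and FIBP left out. Other genes named with values are marked as such in the text or are markers. The 10 genes and the lists were chosen with earlier results of these data known. Alternatives were another scaling (TPM or median ratio), a pseudocount of 0.1, no filter or one of 5 FPKM, annotated transcripts only, no trend, only the groups compared, no fold change threshold, a replicate block and omission of each sample in turn. The alternative without a fold change threshold is the reported fit, so by adjusted p it always gives the reported result.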

Additional observations from a re-analysis of the deposited data

Results flagged for a closer look

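The response to the siRNAs differed in size for 5 of the 10 genes, by a test of the difference itself (limma, Si-FIBP#2 minus Si-FIBP#1, adjusted over all genes tested). By the same test 9.58% of all genes were higher with Si-FIBP#2, as were 21 of the 25 other G2/M genes and 20 of the 37 kinase partners, so the difference is not particular to the 10 genes. Each of the 5 genes was higher with Si-FIBP#2, in 3 of 3 samples against 3 of 3 samples. On the log2(FPKM + 1) scale the differences were 0.83 for BIRC5, 0.55 for TPX2, 0.53 for AURKA, 0.43 for CDCA8 and 0.25 for AURKB. No difference reached 2-fold. The first 4 passed the threshold by adjusted p in all 19 alternatives, with adjusted p of at most 0.0054 for BIRC5, 0.0155 for TPX2, 0.0106 for AURKA and 0.0286 for CDCA8. AURKB did so in 7 of 19. These alternatives include the reported fit without its 2-fold threshold, whose adjusted p is that of the fit itself and is no further check.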

How the results depend on the processing

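With Si-FIBP#1, 8 of the 10 genes were called under every alternative with the 2-fold threshold. With Si-FIBP#2 it was 5, and 3 to 5 with a sample left out (3 without replicate 2 of Si-FIBP#2), 4 with annotated transcripts only, 6 with a pseudocount of 0.1, 7 with median-ratio scaling and 8 without the fold change threshold. Between the siRNAs 0 genes were called, and 5 without that threshold. Of 570 alternative values for single genes, 549 kept their direction and their call, which needs both an adjusted p below 0.05 and 2-fold. The reversed ones were PLK2 between the siRNAs, -0.025 in the fit reported, 0.014 with TPM and -0.11 to 0.042 with a sample left out (0.042 without replicate 1 of Si-FIBP#2).

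Over all genes, 848, 757 and 84 were called with Si-FIBP#1, with Si-FIBP#2 and between the siRNAs. With Si-FIBP#2, 438 were higher and 319 lower, against 345 and 417 with median-ratio scaling. A pseudocount of 0.1 gave 1498, 1411 and 172, and no fold change threshold 7146, 7309 and 2304. Leaving out a sample gave 840 to 882, 734 to 836 and 73 to 128 (128 without replicate 2 of Si-FIBP#2). Without strand or read counts in the tables, overlapping transcripts and depth per gene could not be checked. Leaving out each sample for the gene lists was chosen after seeing the data; of the list genes named with values, only KIZ with Si-FIBP#1 and EGR1 with Si-FIBP#2 changed their call. Low genes such as PLK2 and PLK3 rest on an estimated 170 to 340 fragments per sample.

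Same-numbered samples of different groups correlated at -0.057 to 0.103 in their deviations from the group means, so the numbers were not taken to pair samples. With the replicate block 8, 5 and 0 of the 10 genes were called, and 853, 760 and 88 of all genes.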
